A study of Mus musculus with 3 samples.

Results

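The MMP, ADAMTS and TIMP genes encode 2 families of secreted or membrane-bound metalloproteases that cut the extracellular matrix and the inhibitors that hold them in check. They were picked by gene symbol: every row whose symbol was Mmp, Adamts or Timp followed by a number and at most 1 letter. This gave 46 of the 24091 listed genes, of which 23 were MMP, 19 ADAMTS and 4 TIMP genes. They were measured by bulk RNA-seq in cells of the large intestine of C57BL/6 mice. These cells had been sorted as lymphatic endothelial cells on CD31, podoplanin and LYVE1, with lymphatic capillaries and collecting vessels not separated. The libraries also held transcripts of other cell types, described below. There were 3 libraries of this single group, here replicates 1, 2 and 3, and no treatment, genotype or age is stated in the labels used here. Whether separate animals gave rise to them is not stated either, and p-values and SDs then measure only the spread between these samples, which may be technical. The values are TPM (transcript counts per gene length, scaled to a common total for each library), a measure meant to let levels of different genes be set side by side. How the TPM was computed is not given, so comparisons between genes rest on an unchecked correction for length. Values are given as mean ± SD over the 3 libraries (n = 3) where no single library is named.

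MMPs share a zinc-binding catalytic site and are made as inactive precursors. Some members digest fibrillar collagen, others the collagen IV of basement membranes, and the membrane-type members act at the cell surface. ADAMTS enzymes carry thrombospondin repeats and have narrower substrates, among them versican, procollagen, fibrillin microfibrils and von Willebrand factor. TIMPs block the catalytic site of MMPs, and TIMP3, which binds to the matrix, also inhibits several ADAMTS and ADAM enzymes. In lymphatic vessels this system is known for the proteolytic activation of VEGFC by ADAMTS3 with its cofactor CCBE1, and for the cleavage of LYVE1 by MMP14.

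Markers of other cell types were present, and replicate 3 stood apart. None of the 11 lymphatic endothelial markers was under a TPM of 1 in any library, and their summed TPM was 1692, 1771 and 984 in replicates 1, 2 and 3. The 12 epithelial markers summed to 18493, 22260 and 23432 TPM, far above the lymphatic sum in every library. The 10 fibroblast markers summed to 199, 134 and 501, the 10 smooth muscle and pericyte markers to 233, 188 and 419, and the 10 macrophage and dendritic cell markers to 251, 175 and 555. Every gene of these last 3 lists was highest in replicate 3, and 10 of the 11 lymphatic markers were lowest there. All 10 lymphocyte and plasma cell markers, with sums of 66.8, 140 and 201, were highest in replicate 3 too. So were 4 of 6 neutrophil and 3 of 4 enteric glia markers. The 10 blood endothelial markers summed to 809, 732 and 717 TPM, but single genes went opposite ways in replicate 3. Relative to the mean of the other libraries, Flt1 stood at 4.51, Ackr1 at 4.11, Vwf at 2.79 and Plvap at 2.52, while Emcn stood at 0.568 and Gpihbp1 at 0.482. None of these markers was at 0 in all 3 libraries. A member's TPM therefore describes the whole library and assigns no member to a cell type, and a smaller number of cells of a type cannot be told apart from less RNA per cell. The depth, estimated from regular steps in the low values, was 32.4, 28.4 and 26.1 fragments per TPM and kilobase in replicates 1, 2 and 3.

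Inhibitor transcripts outweighed protease transcripts in every library. The 4 TIMP genes summed to 395, 382 and 294 TPM in replicates 1, 2 and 3. The 23 MMP genes summed to 122, 116 and 156 TPM and the 19 ADAMTS genes to 26.3, 32.2 and 40.4 TPM. The TIMP sum divided by the sum of all 42 protease genes was 2.66, 2.57 and 1.49, a mean ratio of 2.24 ± 0.648. It was lowest in replicate 3, and without that library the mean was 2.62. A few genes carried the ratio: Timp3 and Timp2 made up 96.8 ± 0.475% of the TIMP sum, and Mmp14 and Mmp15 56.8 ± 3.87% of the protease sum. Without Timp3 it was 0.889 ± 0.243, so that the remaining TIMP transcripts did not outweigh the proteases on average.

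**Figure D1:**
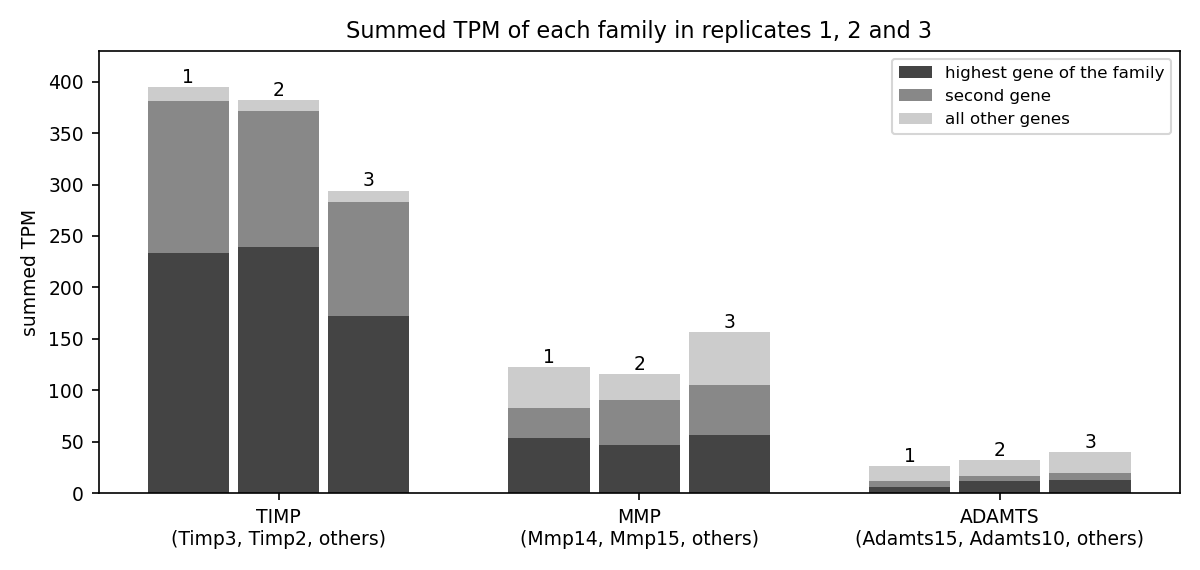
Stacked bars of summed TPM (vertical axis) for the TIMP, MMP and ADAMTS families in replicates 1, 2 and 3, with the highest gene of each family in dark grey, the next in mid grey and all others in light grey. The TIMP bars are highest in every library, at 395, 382 and 294 TPM, and Timp3 and Timp2 fill nearly all of them.

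Of the 46 members, 18 reached a TPM of 1 in all 3 libraries, against 53.4% of all listed genes. These were all 4 TIMP genes, 10 of 23 MMP genes and 4 of 19 ADAMTS genes. Another 5 members, all ADAMTS genes, reached it in 1 or 2 libraries, and 23 stayed below it in all 3. The median over members of the mean TPM was 0.693, against 2.48 over all listed genes. A total of 21 members had a mean TPM of 1 or more, and each of these is described below by its role.

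Timp3 was the highest member. Its TPM was 233, 239 and 173 in replicates 1, 2 and 3, a mean of 215 ± 36.9 that lay at percentile 97.4 of the listed genes (Entrez 21859, chromosome 10, 86300412 to 86349505, mm10). Timp2, which can also bridge MMP14 to the precursor of MMP2 and so take part in its activation, followed at 148, 132 and 111 TPM (Entrez 21858, chromosome 11, 118301061 to 118355411). Timp3 exceeded Timp2 in each library, by 1.65 ± 0.142-fold, and the ranges of these 2 genes did not overlap. The other 2 inhibitors were far lower. Timp4 had 7.82, 7.84 and 6.42 TPM, and Timp1, an inducible inhibitor often raised in inflamed tissue, had 5.28, 2.61 and 4.40 TPM. Timp3 stood 29.1 ± 1.93-fold above Timp4. Its ratio to Timp1 was less steady, at 44.2, 91.6 and 39.2, and Timp1 had its lowest value in replicate 2. Timp2, Timp3 and Timp4 each had their lowest value in replicate 3.

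The membrane-type MMPs held most of the MMP transcripts. Mmp14 encodes MT1-MMP, a transmembrane collagenase that also activates the MMP2 precursor, and had 54.0, 47.3 and 56.3 TPM (mean 52.5 ± 4.70, Entrez 17387, chromosome 14, 54431598 to 54442456). Its spread was the smallest, relative to its mean, of the 21 members with a mean of 1 or more. Mmp15, which encodes MT2-MMP, had 29.0, 43.2 and 48.7 TPM (Entrez 17388, chromosome 8, 95352296 to 95374293). Mmp15 was below Mmp14 in each library, but only by a ratio of 1.09 and 1.16 in replicates 2 and 3 and of 1.86 in replicate 1, and their ranges overlapped. Mmp17, an MMP held at the membrane by a lipid anchor, had 1.54, 1.43 and 1.97 TPM. The other 3 membrane-type genes were near 0: Mmp25 did not exceed 0.276 TPM, Mmp16 0.230 TPM and Mmp24 0.0645 TPM in any library. Together the 6 membrane-type genes summed to 84.7, 92.3 and 108 TPM.

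Of the gelatinases, Mmp2 was present and Mmp9 nearly absent. Mmp2, which cuts denatured collagen and collagen IV, had 6.71, 5.45 and 19.0 TPM. Its value in replicate 3 was 3.13 times the mean of the other 2 libraries, the largest such ratio among the 21 members. Mmp9, the gelatinase of neutrophils and macrophages, had 0.404, 0.129 and 0.549 TPM. None of the 4 secreted collagenase genes reached a TPM of 1. Mmp13 had 0.286, 0.253 and 0.644 TPM, and Mmp8, Mmp1a and Mmp1b were listed at 0 in all 3 libraries, as were 20.9% of listed genes. A count of 0 allows up to 3 fragments, which at the estimated depth is at most 0.0515 TPM for Mmp8, 0.0628 for Mmp1a and 0.0914 for Mmp1b. Intervals and limits of this kind cover counting error only. Of the stromelysins, Mmp11 had 2.16, 2.20 and 3.17 TPM, while Mmp3 and Mmp10 did not exceed 0.282 and 0.140 TPM in any library.

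Matrilysin and 4 further MMP genes completed the expressed MMPs. Mmp7 encodes matrilysin, an epithelial MMP that processes defensins in Paneth cells of the small intestine. It had 13.3, 4.22 and 8.05 TPM, so that its highest library stood 3.15-fold above its lowest, and replicate 3 lay between the others. Mmp28, which encodes epilysin, had 4.87, 6.52 and 9.25 TPM. Mmp12, the elastase of macrophages, had 4.97, 1.97 and 1.93 TPM. It was about equally low in replicates 2 and 3. The macrophage and dendritic cell markers were highest in replicate 3, and the part of these cells in the Mmp12 level was not tested. Mmp23 had 2.05, 1.52 and 3.58 TPM and Mmp19 2.37, 1.13 and 2.33 TPM. Mmp27, Mmp20 and Mmp21 did not exceed 0.139, 0.0702 and 0.0185 TPM. The last of these values stands for an estimated 1 fragment in replicate 1 and 0 in the others.

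Among the ADAMTS genes, those that cleave large proteoglycans such as versican and aggrecan were led by Adamts15. It had 6.47, 11.8 and 12.4 TPM (mean 10.2 ± 3.26, Entrez 235130, chromosome 9, 30899155 to 30922452) and made up 30.6 ± 5.95% of the ADAMTS sum. Adamts1 had 2.91, 1.80 and 4.49 TPM and Adamts4 1.11, 0.817 and 1.50 TPM. Adamts5, Adamts9, Adamts8 and Adamts20 had means of 0.711 ± 0.289, 0.697 ± 0.253, 0.236 ± 0.174 and 0.0796 ± 0.0714 TPM. Levels of neighbouring genes differed here. Adamts15 and Adamts8 lie 20109 bases apart on chromosome 9, on opposite strands. Adamts15 was 86.4, 55.3 and 29.5 times as high as Adamts8 in replicates 1, 2 and 3. These ratios are imprecise, since Adamts8 had only an estimated 8, 21 and 38 fragments. Adamts1 and Adamts5 lie 55043 bases apart on chromosome 16, and Adamts1 was 5.51, 3.21 and 4.30 times as high.

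The procollagen N-proteinases, which remove the amino-terminal propeptide of fibrillar collagens, were low. Adamts2 had 0.808, 1.07 and 2.70 TPM, and its value in replicate 3 was 2.88 times the mean of the others. Adamts3, the VEGFC-activating enzyme of this group, had 0.322, 0.368 and 0.510 TPM, an estimated 39, 39 and 50 fragments. Adamts14 had 0.220, 0.130 and 0.351 TPM. The other genes of VEGFC signalling were unevenly present. The ligand gene Vegfc had 7.07, 7.39 and 9.62 TPM and the receptor gene Flt4 88.7, 81.7 and 50.2 TPM. The cofactor gene Ccbe1 had 0.00557, 0.0377 and 0.0686 TPM, and Vegfd 0.852, 0.570 and 0.912 TPM. Adamts3 and Ccbe1 were thus each far below Vegfc in every library.

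Adamts13 encodes the protease that trims von Willebrand factor. It had 5.72, 6.49 and 3.88 TPM, with its lowest value in replicate 3, where its substrate gene Vwf was highest (8.20, 5.22 and 18.7 TPM). Adamts10, which encodes a fibrillin-binding ADAMTS, had 5.44, 4.83 and 7.44 TPM, and Adamts17, of the same functional group, 0.927, 1.09 and 1.89 TPM. Adamts18, like Adamts13, was highest in replicate 2, at 0.226, 1.10 and 0.323 TPM, which stands for an estimated 40, 171 and 46 fragments. Adamts7 had a mean of 0.689 ± 0.206 TPM. Adamts16, Adamts19, Adamts12 and Adamts6 did not exceed 0.556, 0.272, 0.410 and 0.189 TPM in any library.

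**Figure D2:**
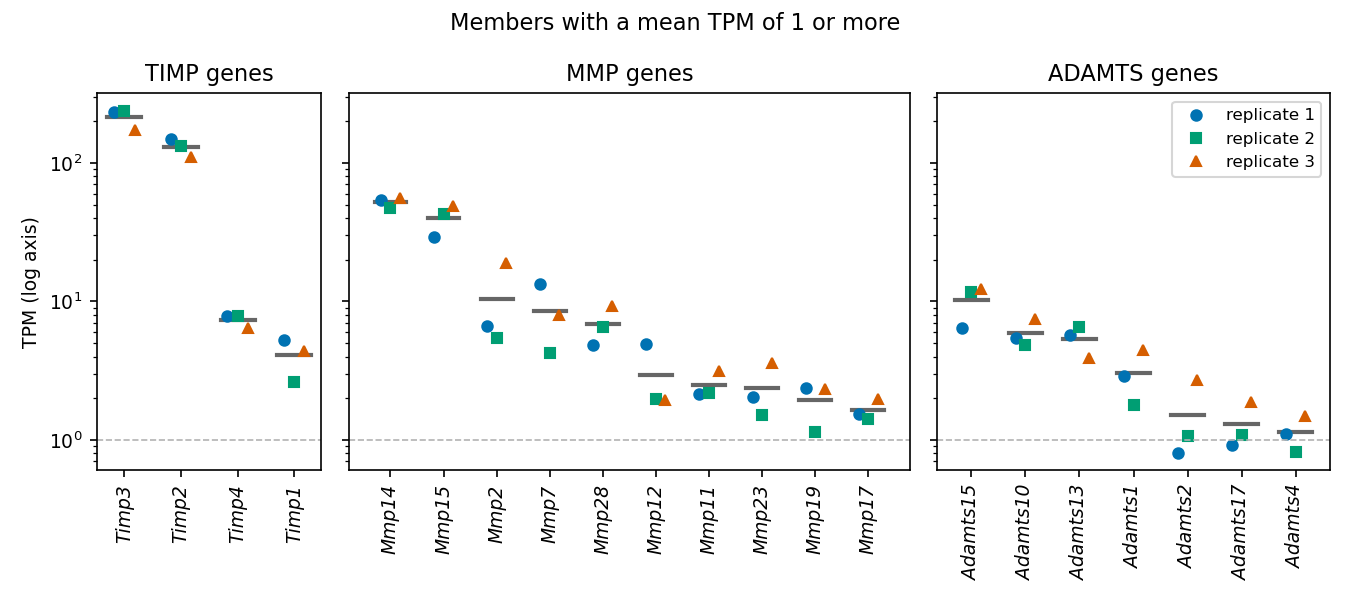
TPM on a log axis for the 21 members with a mean of 1 or more, by family, with 1 symbol per replicate, a bar for the mean and a dashed line at a TPM of 1. Timp3 and Timp2 stand above all other members in every library, followed by Mmp14 and Mmp15, and all others lie below 20.

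In the order of levels, neighbours lay apart beyond their spread only at the top. The order itself was taken from these same libraries. Among the 21 members with a mean of 1 or more there were 20 pairs of neighbours in the order of mean TPM. A pair was taken to differ beyond its spread where the sign of the log2(TPM + 1) difference was the same in all 3 libraries and its mean was larger than its SD. This held for 3 pairs. Timp3 lay above Timp2 by 0.71 ± 0.12 (log2), Timp2 above Mmp14 by 1.29 ± 0.28, and Mmp15 above Mmp2 by 2.02 ± 0.73. The exact two-sided sign-flip permutation test gave p = 0.25 for each (n = 3). No smaller p can be reached with 3 libraries, and with Benjamini-Hochberg adjustment for 20 pairs each became 1. The pair of Mmp14 and Mmp15, at 0.40 ± 0.41, did not meet the rule, nor did any pair from Mmp2 downwards. The ranking of the 17 members from Mmp2 to Adamts4 is therefore not resolved from one gene to the next.

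In replicate 3 the MMP and ADAMTS sums were higher, and the TIMP sum lower, than in both other libraries. Of the 21 members with a mean of 1 or more, 13 were highest in that library, which is 61.9%, against 41.3% of all genes with such a mean. They were 7 MMP and 6 ADAMTS genes and no TIMP gene. Relative to the mean of replicates 1 and 2, the MMP sum in replicate 3 was 1.31 and the ADAMTS sum 1.38, while the TIMP sum was 0.758. The median over the 21 members was 1.35, against 1.07 over all 13606 genes with a mean TPM of 1 or more. Mmp2 (3.13), Adamts2 (2.88), Mmp23 (2.01) and Adamts1 (1.91) had ratios above the 95th percentile of all genes, which was 1.83, as did Adamts17 (1.87). Timp3 (0.730), Adamts13 (0.636) and Mmp12 (0.557) lay below the 5th percentile, which was 0.736. In the same library the summed fibroblast markers stood at 3.01, macrophage and dendritic cell markers at 2.60, smooth muscle and pericyte markers at 1.99 and lymphatic markers at 0.568 of the mean of the others. Lymphocyte and plasma cell markers stood at 1.94, neutrophil markers at 1.89 and enteric glia markers at 1.74. The part of these cell types in the members' values was not tested. Mmp14 was highest in replicate 3 as deposited but in replicate 1 under both other scalings. Timp3 and Timp4 went from replicate 2 to replicate 1 under both, and Adamts13 did so under median-of-ratios scaling.

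**Figure D3:**
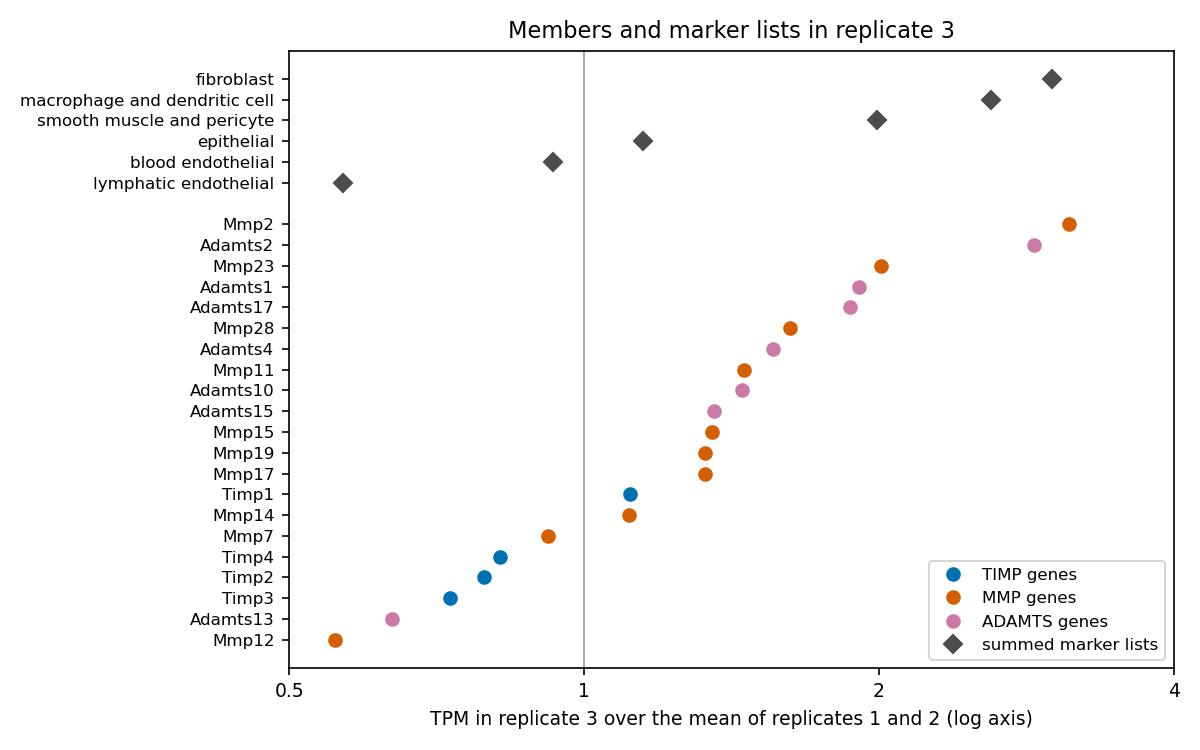
TPM in replicate 3 divided by the mean of replicates 1 and 2 (log axis, with a line at 1) for each of the 21 members, coloured by family, and for the summed markers of 6 cell types (diamonds). Mmp2 lies at 3.13 and Adamts2 at 2.88, with the fibroblast sum at 3.01 and the macrophage and dendritic cell sum at 2.60. Timp2, Timp3 and Timp4 lie below 1, at 0.790, 0.730 and 0.820.

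Of the 23 MMP genes, 10 lie in 1 block on chromosome 9 (7272514 to 7699585, a span of 427072 bases in mm10) that also holds other genes. Most of these 10 MMP genes were at or near 0. In this block 2 MMP genes, Mmp7 and Mmp12, reached a TPM of 1 in every library, against 53.4% of all listed genes. The other 8 stayed below it in all libraries, and 3 of these were at 0, as were 20.9% of all listed genes. Mmp7 lies at 1 end of the block, and the next member, Mmp20, did not exceed 0.0702 TPM. Mmp12 lies between Mmp13, with at most 0.644 TPM, and Mmp1b, at 0. The 8 MMP genes that were highest outside this block, from Mmp14 to Mmp17, lie on chromosomes 4, 5, 8, 10, 11 and 14.

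**Figure D4:**
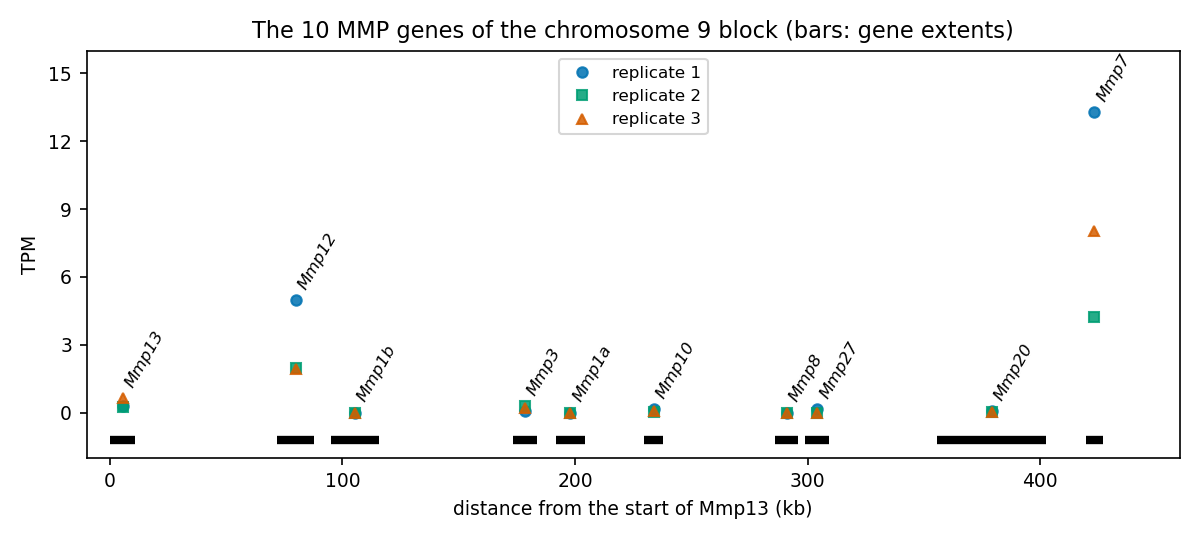
TPM in each replicate (symbols) for the 10 MMP genes of the chromosome 9 block against distance from the start of Mmp13 in kb, with black bars for the extent of each gene. Mmp7 at 13.3, 4.22 and 8.05 TPM and Mmp12 at 4.97, 1.97 and 1.93 TPM stand above genes that stay below 1.

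Most MMP genes of the block also shared letters in front of their start sites. RefSeq windows of the 250 bases before a transcription start (GRCm38.p6) were found for 32 of the 46 members, in 35 windows. The pattern TGANTCA, in which N is any base, was searched, and it reads the same on both strands. The binding site of the transcription factor AP-1 has C or G in the middle, so the pattern is looser than that site. The share of windows with the AP-1 site alone was not computed. TGANTCA occurred in 8 of 12 windows of the block (8 of its 10 MMP genes), in 0 of 23 windows of other members and in 6.75% of all 32851 windows. TATAAA, a core promoter motif, was searched on both strands. It occurred in 7 of the 12 block windows, in 2 of 23 windows of other members and in 12.4% of all windows. All 7 of these block windows held TGANTCA too, and both occurred together in 1.21% of all windows. The median number of CG pairs in a window was 1 in the block, 15 in other members and 6 in all windows. G and C made up a median of 40.2% of bases in the block, 63.6% in other members and 52.4% in all windows. The shares of windows with a motif were not matched for this base content. For the block, 3 windows are shown because all hold both motifs while the genes differed in level, from Mmp7 (mean 8.52 TPM) through Mmp10 (0.0866 TPM) to Mmp1a (0). Windows of Timp3, Timp2 and Mmp14, the 3 highest members, hold neither and are shown for comparison. Each is written 5′ to 3′ in the direction of transcription and ends at the base before the start, with TGANTCA and TATAAA in capitals.
Mmp7, chr9:7691840-7692089, plus strand: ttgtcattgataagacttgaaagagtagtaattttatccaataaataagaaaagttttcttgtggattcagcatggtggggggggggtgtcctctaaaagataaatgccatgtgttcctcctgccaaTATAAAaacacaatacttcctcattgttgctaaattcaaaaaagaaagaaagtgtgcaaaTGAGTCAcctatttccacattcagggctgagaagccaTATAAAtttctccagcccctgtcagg
Mmp10, chr9:7502092-7502341, plus strand: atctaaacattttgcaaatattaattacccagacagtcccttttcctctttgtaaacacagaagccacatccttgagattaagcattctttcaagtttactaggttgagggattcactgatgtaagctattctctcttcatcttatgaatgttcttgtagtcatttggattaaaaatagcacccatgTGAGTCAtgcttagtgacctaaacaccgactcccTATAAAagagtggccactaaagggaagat
Mmp1a, chr9:7463891-7464140, plus strand: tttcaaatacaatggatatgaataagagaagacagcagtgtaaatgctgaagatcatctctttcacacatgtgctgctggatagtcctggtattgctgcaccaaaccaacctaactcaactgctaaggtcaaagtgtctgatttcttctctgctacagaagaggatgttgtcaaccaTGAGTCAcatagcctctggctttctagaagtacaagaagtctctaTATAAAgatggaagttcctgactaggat
Timp3, chr10:86300162-86300411, plus strand: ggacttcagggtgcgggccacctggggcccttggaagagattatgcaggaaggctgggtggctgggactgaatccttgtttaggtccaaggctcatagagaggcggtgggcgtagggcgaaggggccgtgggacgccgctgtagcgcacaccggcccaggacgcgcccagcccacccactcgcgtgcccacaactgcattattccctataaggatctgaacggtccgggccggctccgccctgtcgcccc
Timp2, chr11:118355412-118355661, minus strand: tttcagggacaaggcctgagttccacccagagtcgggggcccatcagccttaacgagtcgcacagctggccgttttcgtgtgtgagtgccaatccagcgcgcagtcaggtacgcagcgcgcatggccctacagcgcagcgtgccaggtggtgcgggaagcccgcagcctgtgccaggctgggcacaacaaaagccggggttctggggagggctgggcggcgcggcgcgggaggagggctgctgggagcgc
Mmp14, chr14:54431348-54431597, plus strand: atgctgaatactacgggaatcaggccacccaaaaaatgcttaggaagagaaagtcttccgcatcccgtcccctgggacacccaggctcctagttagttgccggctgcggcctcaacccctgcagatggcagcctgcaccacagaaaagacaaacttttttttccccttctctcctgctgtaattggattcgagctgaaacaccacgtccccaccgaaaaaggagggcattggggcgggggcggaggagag

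In these windows TGANTCA began 63 bases before the start in both Mmp7 and Mmp10 and 73 bases before it in Mmp1a. Mmp7, Mmp10 and Mmp1a thus carried the same 2 motifs in front of their starts at levels from 8.52 TPM to 0, and a motif match describes letters, not binding. Mmp7 and Mmp12 each have a further annotated start whose window holds no TGANTCA, and the values do not say which start was used.

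Several members overlap other genes, and whether counting used strand is not given in the sources used here. Mmp11 (mean 2.51 TPM) shares 155 exon bases with Chchd10 on the opposite strand, a gene at 409 TPM. Mmp28 shares 466 exon bases with 1700020L24Rik (14.1 TPM) and Mmp19 789 with Tmem198b (11.8 TPM), again on the opposite strand. The levels of these 3 members are therefore uncertain. Of the inhibitors, Timp1, Timp3 and Timp4 each lie inside a synapsin gene on its opposite strand. Their hosts Syn1, Syn3 and Syn2 had 0.127, 3.93 and 4.63 TPM. Timp3 shares 1733 exon bases with Syn3 but stood well above it. Timp4 (mean 7.36 TPM) shares 90 exon bases with Syn2 and was close to it in level. The part of these overlaps in the levels of Timp3 and Timp4 was not tested.

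Genes that activate, inhibit or serve as substrates of these proteases were taken from lists, and their levels are those of the whole libraries too. Of 10 activator genes, 9 were expressed, that is, at 1 TPM or more in all 3 libraries, as were 53.4% of all listed genes. They were led by the meprin gene Mep1a, a brush border protease (77.1 ± 15.6 TPM), the proprotein convertase genes Pcsk7 (47.0 ± 11.0) and Pcsk6 (33.9 ± 7.47), and the meprin gene Mep1b (27.5 ± 2.30). Furin, which cuts the propeptide of membrane-type MMPs and many ADAMTS enzymes, had 21.3, 28.7 and 29.6 TPM. The genes of the plasminogen activator uPA and its receptor, Plau and Plaur, had means of 15.8 ± 1.02 and 22.3 ± 3.41 TPM, while plasminogen itself (Plg) had 0.0509 ± 0.0335. Of 7 genes for other protease inhibitors, 5 were expressed. Serping1 (103 ± 16.1), the C1 inhibitor gene, and Serpine2 (55.4 ± 17.5), which encodes an inhibitor of thrombin and plasminogen activators, led them, ahead of Slpi (8.18 ± 4.84). Reck, which encodes a membrane-anchored MMP inhibitor, had 1.92 ± 0.151 TPM, far below Timp3 and Timp2. The general protease trap A2m was listed at 0.

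Of 18 substrate genes, 15 were expressed, against 53.4% of all listed genes. They were led by Dcn (91.5 ± 56.2 TPM), Col3a1 (58.8 ± 50.4), Col4a1 (54.1 ± 4.37) and Bgn (48.5 ± 23.4). Versican (Vcan), the substrate of several ADAMTS enzymes, had 1.31, 1.43 and 3.21 TPM, and the aggrecan gene Acan did not exceed 0.0292 TPM. The collagen genes differed in their ratio of replicate 3 to the other libraries. Col1a1, Col1a2 and Col3a1 were 3.27, 3.10 and 3.87 times the mean of the other libraries there, and are themselves fibroblast markers. Col4a1 and Col4a2, which encode basement membrane collagen, were 1.15 and 1.36 times that mean. The ratio was 3.13 for Mmp2, 2.88 for Adamts2 and 1.11 for Mmp14, against a median of 1.07 over all genes with a mean TPM of 1 or more. Whether these members vary with any of the collagen genes was not tested. The uptake receptor gene Lrp1, which clears proteases and their inhibitors, had 8.20, 17.3 and 20.3 TPM, and Mrc2, a collagen uptake receptor gene, 0.722, 0.479 and 1.84.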

How the data were processed

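The deposited tables hold 1 TPM value per gene and library, per the file headers. The submitters' processing notes name mm10, Cell Ranger 6.0.1 and HTSeq. How the TPM was computed and with which annotation is not given in the sources used here. All 46 members matched RefSeq genes of GRCm38.p6 by Entrez ID with the same symbol, and coordinates are from that table, 1-based. Overlaps and transcript lengths are from GENCODE M21.

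Expressed means at least 1 TPM in each of the 3 libraries. With 1 group there was no contrast between conditions, and only neighbours in the order of levels were tested, on log2(TPM + 1). Every member with a mean TPM of 1 or more is named with its value in each library, and the rest by their range. Of the lists of related genes, the 4 highest were to be named, and some items are not reported here. Others named from them or from the marker lists (Furin, Plau, Plaur, Plg, Reck, A2m, Vcan, Acan, Vwf, Flt1, Ackr1, Plvap, Emcn, Gpihbp1, Col1a1, Col1a2, Col4a2, Vegfd, Ccbe1, Adam17, Bmp1, Tll1 and Ctsk) were chosen after their values were seen, as were the TATAAA and CG searches. Members and lists were chosen with earlier results of these data known.

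TPM keeps no depth by itself. Among genes with 1 RefSeq transcript of over 1000 bases, the share of low values that came out whole (tolerance 0.15 fragments) was 67.1%, 67.7% and 69.6% in replicates 1, 2 and 3. The phase score was 0.537, 0.545 and 0.570, against 0.0678, 0.075 and 0.0808 with shuffled lengths. Fragment numbers are estimates on the longest RefSeq-linked transcript. The scripts were tested on simulated data. Alternatives were other TPM minimums, scaling by median of ratios, TPM recomputed with ribosomal protein genes left out, a pseudocount of 0.1 and leaving out each replicate. Protein sequences were not analysed here. Python 3.11.15, numpy 2.4.6, pandas 2.3.3 and matplotlib 3.10.9 were used.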

Additional observations from a re-analysis of the deposited data

How the results depend on the processing

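No paired analysis was possible because the series holds a single group. With a minimum of 5 TPM in place of 1, 7 members were expressed (3 MMP, 1 ADAMTS and 3 TIMP genes). The count of 4 expressed ADAMTS genes was the least firm: it became 9 at a minimum of 0.5 TPM, 7 with a mean TPM of 1 or more and 7 without ribosomal protein genes. Leaving out 1 replicate gave 18 to 20 expressed members, 10 MMP, 4 to 6 ADAMTS and 4 TIMP genes. The ratio of TIMP to protease sums was 2.24, ranged from 2.03 to 2.62 without 1 replicate, was 3.35 without Mmp14 and was 0.889 without Timp3. Of members with a mean of 5 TPM or more, 6 of 11 were highest in replicate 3. Of the 21 members with a mean of 1 or more, 12 were under either rescaling, Mmp14 being the member that left the count. For these counts of expressed members and of members highest in replicate 3, the share of all genes at each alternative setting was not computed. The scaling alternatives for family sums, added after seeing the data, gave 0.737 and 0.693 for TIMP, 1.28 and 1.20 for MMP and 1.34 and 1.27 for ADAMTS in replicate 3 relative to the others. Rescaling without ribosomal protein genes raised the level of 7 of 21 named members by more than their SD, since it raises every value. The number of neighbour pairs beyond their spread stayed at 3, with the same pairs, under the other scalings and pseudocount. It was 5 to 7 without 1 replicate, where agreement of 2 libraries is easier to reach. Without replicate 3, 2 of the 3 pairs remained, because Adamts15 took the place of Mmp2 below Mmp15. As deposited, the median of all genes lay -0.13, 0.07 and 0.07 (log2) from the mean of the libraries in replicates 1, 2 and 3, and median-of-ratios scaling removed this. The order of members with a mean below 1 TPM was not tested.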

Other observations

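Among related proteases outside the members, 8 of 12 genes of the ADAM and tolloid group were expressed, against 53.4% of all listed genes. The sheddase gene Adam10 (49.5 ± 4.88 TPM), Adamdec1 (45.7 ± 9.73), Adam15 (42.0 ± 7.03) and Adam9 (28.8 ± 7.38) led them, at levels near those of Mmp14 and Mmp15. Adam17, which encodes the TNF-converting enzyme and is a target of TIMP3, had 14.1, 16.9 and 16.4 TPM. The tolloid genes Bmp1 and Tll1 had means of 10.5 ± 1.55 and 3.70 ± 0.353 TPM. Of the 5 ADAMTS-like genes, whose products resemble ADAMTS enzymes but lack the protease domain, 3 were expressed, Adamtsl1 (6.21 ± 1.45 TPM), Adamtsl4 (5.72 ± 0.795) and Adamtsl5 (3.92 ± 0.919).

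All 7 cathepsin genes, which encode lysosomal proteases, were expressed, against 53.4% of all listed genes. Their sum of 967 ± 38.4 TPM was above the MMP sum of 132 ± 21.7. Ctsd (309 ± 23.7 TPM), Ctss (185 ± 29.4), Ctsb (179 ± 2.75) and Ctsz (143 ± 8.79) led them. Ctsk, a collagen-degrading cathepsin gene, had 1.89, 2.43 and 5.68 TPM, with replicate 3 at 2.63 times the mean of the others, beside macrophage and dendritic cell markers at 2.60 and fibroblast markers at 3.01. The part of these cells in its level was not tested.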
